A study of Mus musculus with 8 samples.

Results

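The 10 genes described here encode core parts of the Notch pathway: 4 ligands (Jag1, Jag2, Dll1 and Dll4), 4 receptors (Notch1, Notch2, Notch3 and Notch4) and 2 transcriptional targets (Hes1 and Hey1). They were taken by symbol from the expression table of BMEL cells, bipotential cells from embryonic mouse liver grown as a line, and all 10 were present among its 18671 genes. The GRHL2 samples (n = 4) had received a plasmid for Flag-tagged GRHL2, whereas the control samples (n = 4) had received pcDNA3, and RNA was taken 48 h after transfection. Both groups grew on collagen with serum, IGFII, EGF and insulin. The GRHL2 plasmid carries the human cDNA under the EEF1A1 promoter together with enhanced green fluorescent protein, which pcDNA3 lacks, so GRHL2 and the fluorescent protein cannot be told apart as the source of a difference. The cells were transfected transiently, and the samples are bulk RNA, in which fewer cells expressing a gene and less RNA per cell cannot be told apart.

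Notch receptors are cleaved when a ligand on a neighbouring cell binds them. The released intracellular part joins the DNA-binding protein RBPJ and a Mastermind co-activator and switches on target genes such as those of the HES and HEY repressors. In the developing liver, Jagged1-Notch2 signalling is known for directing hepatoblasts towards the bile duct fate.

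The values are log2 levels per kb of transcript, made from the regularized logarithm (rlog) of DESeq2. They ran from -2.85 to 18.01, with a median of 6.45 over all genes. The rlog draws samples together at genes with few reads, so differences at low genes are understated. The spread within a group is drawn in too, so small differences at low genes can still be called. Read totals cannot be recovered from such values, so the depth of the samples and the counting error are not known. A gene was called when its adjusted p was under 0.05 in limma, a linear model with a moderated variance, with Benjamini-Hochberg adjustment over all 18671 genes. By this rule 10.5% of all genes were called higher and 5.91% lower in the GRHL2 samples. Higher genes made up 63.9% of the calls, or 75.9% with an equal upper quartile and 77.0% with an equal sum in each sample. These scalings moved the median difference of all genes by 0.023 and 0.024. The share was lower, at 57.0% (1451 higher and 1096 lower), when only genes with a mean of at least 2 were kept. It was 56.7% with the replicate number as a block and 58.4% with a correction for the GC content of transcripts. Grhl2 itself, the check of the labels, lay at 6.30, 6.96, 5.65 and 6.05 in replicates 1 to 4 of the GRHL2 group and at 4.68, 4.57, 4.42 and 4.44 in the control replicates, and how far reads from the human cDNA entered this mouse row is not known. Of the 9 listed hepatoblast and liver epithelium markers, 8 were measured, with control means of 15.31 for Krt8, 15.05 for Krt19 and 11.16 for Hnf4a, whereas Alb, at 5.25, was below the median of all genes. Afp was called lower (from 8.32 to 8.11, adjusted p = 0.0124) and Cdh1 higher (from 12.21 to 12.50, adjusted p = 0.0199, limma) in the GRHL2 samples. The hepatoblast marker Dlk1 was not among the genes of the table. Of 4 measured blood and macrophage markers, none was called by limma without the block (2 higher at an unadjusted p under 0.05). Cd68 was called higher with it (adjusted p = 0.0205, limma), as were 18.2% of all genes. In several genes replicates 3 and 4 stood apart from replicates 1 and 2 in both groups, so differences were also computed within each of these pairs of replicates, although no label names a batch.

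Notch3 and Dll4 were the 2 members called, both higher in the GRHL2 samples, and no member was called lower by limma (0 at an unadjusted p under 0.05). Notch3 had a log2 fold change of 0.64, or 1.56-fold on the rlog scale, and Dll4 one of 0.31, or 1.24-fold. The count of 2 in 10 stands against the 10.5% of all genes called higher. In these 2 members all GRHL2 samples lay above all control samples, as in 14.3% of all genes, and in none did all GRHL2 samples lie below all control samples, as they did in 9.47% of all genes. In the remaining 8 members the groups overlapped, and their differences ran from -0.066 for Notch4 to 0.16 for Hes1. The median difference of the 10 members was 0.097, against 0.0066 over all genes, and 9 of the 10 had a higher mean in the GRHL2 samples, as had 53.9% of all genes. With the replicate number as a block in limma, Jag1 and Hes1 were called higher too, so that 4 of 10 members were called against 18.2% of all genes called higher in that fit.

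**Figure D1:**
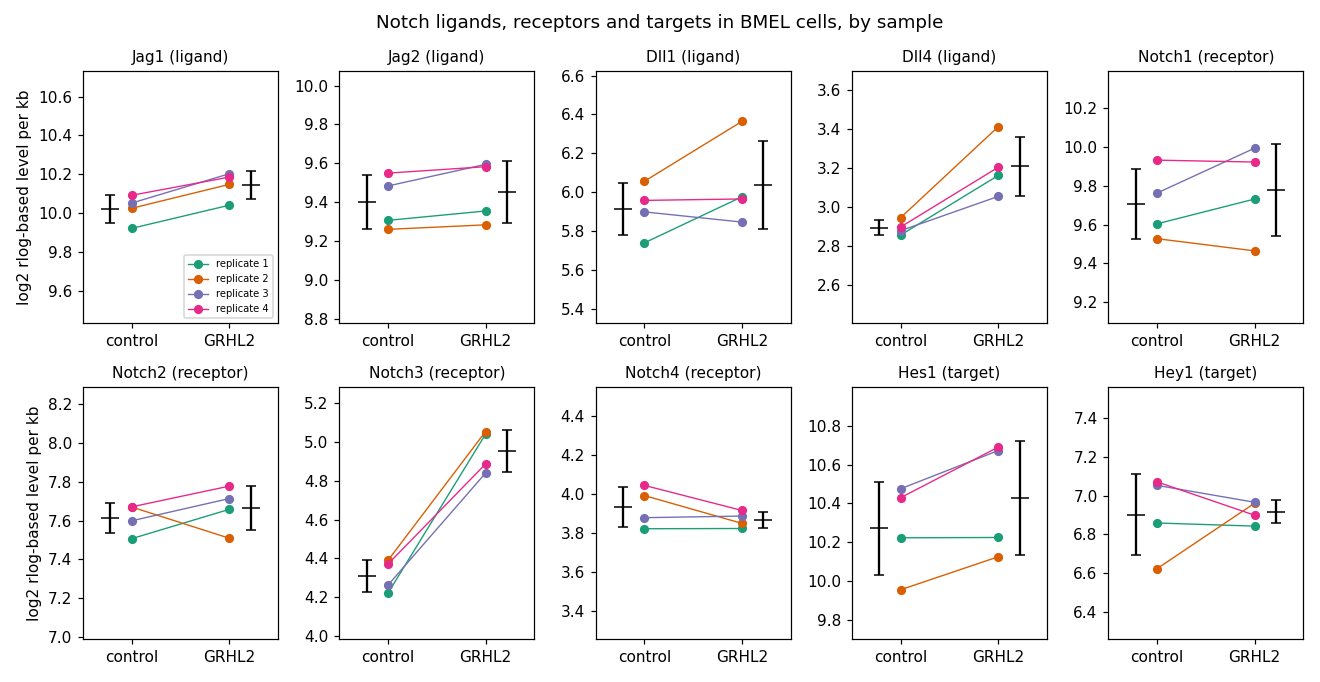
Log2 rlog-based level per kb (vertical axis, all panels of equal height) of the 10 Notch genes in control and GRHL2 samples. Points are samples, coloured lines join samples of the same replicate number, and black bars show the mean and SD (n = 4). In the panels of Notch3 and Dll4 all GRHL2 points lie above all control points, and Jag1, Jag2 and Hes1 rise along all 4 lines.

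The promoters of both called genes are shown, with that of Notch4, the 1 member whose mean was lower in the GRHL2 samples. Each is the 250 bases before the RefSeq start of the gene on GRCm38.p6, written 5' to 3' on the gene's strand, and capitals mark CG dinucleotides.
Notch3, chr17:32166891-32167140, minus strand: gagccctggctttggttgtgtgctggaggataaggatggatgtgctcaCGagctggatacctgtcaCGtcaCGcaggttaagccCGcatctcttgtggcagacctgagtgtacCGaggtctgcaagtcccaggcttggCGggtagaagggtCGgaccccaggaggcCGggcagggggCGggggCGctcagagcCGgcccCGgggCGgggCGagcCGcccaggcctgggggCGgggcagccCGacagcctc
Dll4, chr2:119325534-119325783, plus strand: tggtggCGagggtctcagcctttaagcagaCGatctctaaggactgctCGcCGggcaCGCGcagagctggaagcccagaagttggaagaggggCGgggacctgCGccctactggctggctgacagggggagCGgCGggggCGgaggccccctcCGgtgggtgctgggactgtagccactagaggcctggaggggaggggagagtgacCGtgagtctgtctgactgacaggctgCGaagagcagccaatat
Notch4, chr17:34564045-34564294, plus strand: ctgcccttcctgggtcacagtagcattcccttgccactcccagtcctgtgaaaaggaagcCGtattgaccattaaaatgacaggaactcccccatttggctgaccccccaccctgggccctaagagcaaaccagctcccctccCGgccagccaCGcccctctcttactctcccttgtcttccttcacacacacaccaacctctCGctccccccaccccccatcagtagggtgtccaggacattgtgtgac
The Notch3 window held 17 CG dinucleotides, the Dll4 window 14 and the Notch4 window 4, against a median of 6 over 32851 such windows of the mouse genome. Entries were found for 8 members (Notch1 to Notch4, Jag1, Jag2, Dll1 and Dll4) in 9 windows, and Jag2 had the most CG dinucleotides, 54. The grainyhead letters AACCGGTT and AACNNGTT and the RBPJ letters TTCCCAC were searched on both strands, the first being a special case of the second. None of the 3 was found in the 9 windows, whereas they occur in 0.116%, 3.64% and 5.42% of all windows. The finding says only that these letters are not in these 250 bases.

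Among the ligands, which sit on the membrane of the signalling cell, Dll4 was called higher, whereas Jag1 was not called without the replicate block and was called with it, or with a term for replicates 1 and 2 against 3 and 4 (adjusted p = 0.0370, limma). Dll4 (ENSMUSG00000027314; GRCm38 chromosome 2, 119325784 to 119335962, plus strand), a Delta-like ligand best known from vessel sprouting, lay at 3.16, 3.41, 3.05 and 3.20 in replicates 1 to 4 of the GRHL2 group. Its control replicates lay at 2.86, 2.94, 2.88 and 2.90. The lowest GRHL2 sample thus lay above the highest control sample, and GRHL2 replicate 2 was the highest of all. The log2 fold change of 0.31 had a standard error of 0.064 and an adjusted p of 0.00960 (limma), and the exact permutation test gave the smallest p that 4 samples against 4 allow (two-sided, p = 0.0286). Groups that do not overlap in this direction were found for 14.3% of all genes. The difference was 0.39 within replicates 1 and 2 and 0.24 within replicates 3 and 4, and with replicates 1 and 2 alone it was not called (adjusted p = 0.0572, limma). Dll4 was the lowest of the 10 members in both groups. Of its exonic bases, 5.56% overlap Gm14207 on the other strand, a gene listed at 0.79 in control samples and 0.80 in GRHL2 samples.

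Endothelial cells are a known site of Dll4 and Notch4, so their markers were read beside these genes. Of the 6 listed markers, 5 were in the table (Lyve1 was not), and none was called by limma without the block, whereas 2 were higher and 1 lower at an unadjusted p under 0.05. With the block, in which Dll4 was called too, Kdr and Tek were called higher (adjusted p = 0.0411 and 0.0234, limma). Among all genes, 10.5% were called higher and 5.91% lower without the block, and 18.2% and 13.9% with it. Cdh5, which defines the type, had a mean of 1.23 in control samples and 1.24 in GRHL2 samples. Kdr had 2.31 and 2.45, Tek 1.63 and 1.72, and Pecam1 3.33 and 3.25. The log2 of the 5 summed levels ran from 4.57 to 4.60 in control samples and from 4.54 to 4.66 in GRHL2 samples, so the ranges overlapped. The part of such cells in the Dll4 difference was not tested.

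Jag1 (chromosome 2, 137081456 to 137116644, minus strand), the Jagged ligand whose loss impairs bile duct formation, was the ligand with the highest level. It lay at 10.04, 10.15, 10.20 and 10.18 in GRHL2 replicates 1 to 4 and at 9.92, 10.02, 10.05 and 10.09 in the control replicates. The groups overlapped, but each GRHL2 sample was above the control sample of the same number, by 0.094 to 0.15. Its log2 fold change of 0.12 had a 95% interval from -0.00038 to 0.24 and an adjusted p of 0.162, and with the replicate block the interval was 0.048 to 0.20 and the adjusted p 0.0205 (limma). The difference was 0.12 within replicates 1 and 2 and 0.12 within replicates 3 and 4. A rise in all 4 pairs was seen in 5 of the 10 members (Notch3, Dll4, Jag1, Jag2 and Hes1) and in 27.3% of all genes.

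Jag2 and Dll1 were not called with or without the block. Jag2 (chromosome 12, 112907819 to 112929776, minus strand), the second Jagged ligand, ran from 9.28 to 9.59 in GRHL2 samples and from 9.26 to 9.55 in control samples. Its difference of 0.054 had a 95% interval from -0.15 to 0.26. In both groups replicates 3 and 4 lay above replicates 1 and 2, by 0.27 in GRHL2 and 0.23 in control samples, several times the difference between the groups. Dll1 (chromosome 17, 15367354 to 15376872, minus strand), a Delta-like ligand, was measured at 5.98, 6.36, 5.85 and 5.96 in replicates 1 to 4 of the GRHL2 group and at 5.74, 6.06, 5.90 and 5.96 in the control replicates. Replicate 2 was the highest in each group, and the difference was 0.27 within replicates 1 and 2 but -0.022 within replicates 3 and 4. The Dll1 difference of 0.13 had an adjusted p of 0.472 (limma), and it was 0.016 without GRHL2 replicate 2. Of its exonic bases, 20.5% overlap A930024N18Rik on the other strand, so reads there could belong to either gene in counts made without strand.

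Among the receptors, Notch3 rose and the other 3 did not pass the test. Notch3 (ENSMUSG00000038146; chromosome 17, 32120820 to 32166852, minus strand), a receptor best known from vascular smooth muscle, was measured at 5.04, 5.05, 4.84 and 4.89 in replicates 1 to 4 of the GRHL2 group. The control replicates lay at 4.22, 4.39, 4.26 and 4.37. The groups did not overlap, and the gap between the groups exceeded the range within either of them. The log2 fold change of 0.64 had a standard error of 0.060, a 95% interval from 0.51 to 0.78 and an adjusted p of 0.000197 (limma), with the smallest exact permutation p (two-sided, 0.0286). Of all genes, 98, or 0.525%, had a larger rise. The difference was 0.74 within replicates 1 and 2 and 0.55 within replicates 3 and 4, and adjusted p-values were 0.0102 and 0.00147 (limma). An antisense gene, Gm17276, overlaps 6.03% of its exonic bases and was not among the genes of the table.

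Notch3 is also expressed by mesenchymal cells of the liver, and 2 of the 5 measured stellate and fibroblast markers, Pdgfrb and Reln, were called higher in the GRHL2 samples. Pdgfrb, the receptor that defines these cells, was among the lowest genes, with means of -0.23 in control and -0.12 in GRHL2 samples (adjusted p = 0.00886, limma). Reln had means of 0.91 and 1.01 (adjusted p = 0.0164, limma). The log2 of the 5 summed levels ran from 5.55 to 5.82 in control samples and from 5.69 to 5.95 in GRHL2 samples. With the block Col1a1 was called higher too (adjusted p = 0.0281, limma), which makes 3 of the 5. Of all genes, 10.5% were called higher without the block and 18.2% with it. Des and Acta2 were called in neither fit, Col3a1 was not among the genes of the table, and the part of such cells in the Notch3 difference was not tested.

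Notch1 (chromosome 2, 26457903 to 26516663, minus strand), the receptor with the highest level, ran from 9.46 to 9.99 in GRHL2 samples and from 9.53 to 9.93 in control samples. Its difference of 0.072 had a 95% interval from -0.20 to 0.34, and 9.76% of its exonic bases overlap other annotated genes. Replicates 3 and 4 were above replicates 1 and 2 by 0.36 in GRHL2 and by 0.28 in control samples. Notch2 (chromosome 3, 98013527 to 98150361, plus strand), the receptor needed for bile duct development, lay between 7.51 and 7.78 in GRHL2 and between 7.51 and 7.67 in control samples. Its difference of 0.053 had a 95% interval from -0.093 to 0.20, narrow enough to leave out a rise of the size seen for Notch3. Notch4 (chromosome 17, 34564268 to 34588503, plus strand), known mainly from endothelium, ran from 3.82 to 3.92 in GRHL2 and from 3.82 to 4.04 in control samples. Its difference was -0.066, with a 95% interval from -0.18 to 0.045. The GC correction moved it to -0.13 (adjusted p = 0.0869, limma), and with the block added Notch4 was called lower (adjusted p = 0.0302).

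**Figure D2:**
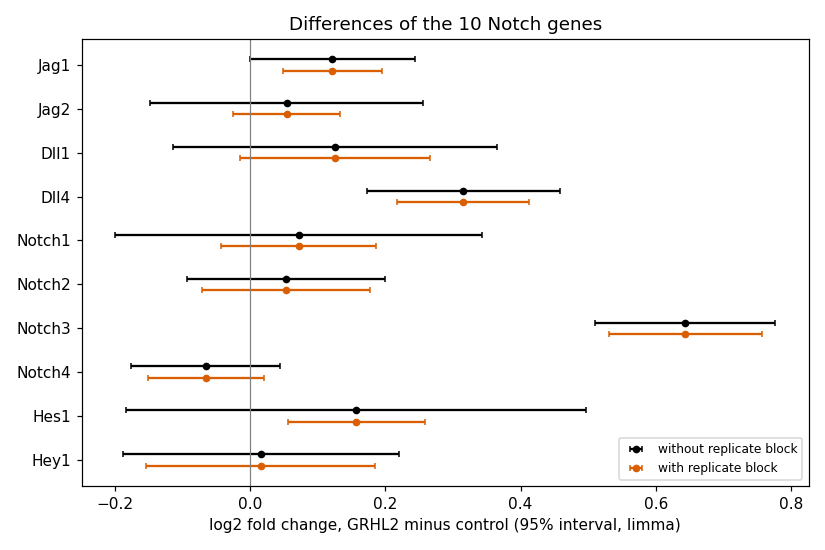
Log2 fold change (GRHL2 minus control, horizontal axis) of each Notch gene with its 95% interval from limma, without the replicate block in black and with it in orange (n = 4 per group). The intervals of Notch3 and Dll4 lie to the right of 0 in both fits, and those of Jag1 and Hes1 do so only with the block.

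The log2 ratio of a called gene to another receptor or ligand in the same sample does not depend on how samples are scaled. The ratio of Notch3 to Notch4 was 0.33 to 0.40 in the control samples and 0.95 to 1.22 in the GRHL2 samples. The ratio to Notch2 was -3.34 to -3.28 in control and -2.89 to -2.46 in GRHL2 samples, and neither of these pairs of ranges overlapped. The ratio to Notch1 had ranges that met, -5.56 to -5.14 in control and -5.15 to -4.41 in GRHL2 samples. The ratios of Dll4 to the other ligands overlapped between the groups in all 3 cases. They were -7.19 to -7.07 in control and -7.15 to -6.73 in GRHL2 samples for Jag1, -6.65 to -6.31 and -6.54 to -5.87 for Jag2, and -3.11 to -2.88 and -2.95 to -2.76 for Dll1. These ratios were set up after the values of Notch3 and Dll4 had been seen and are given with no test. As a share of the 4 receptors' summed levels, Notch3 made up 1.87% ± 0.20 (SD, n = 4) in control and 2.80% ± 0.59 (SD, n = 4) in GRHL2 samples, against 78.3% ± 2.1 and 77.9% ± 2.0 for Notch1. Dll4 made up 0.417% ± 0.027 (SD, n = 4) of the summed ligand levels in control and 0.488% ± 0.070 (SD, n = 4) in GRHL2 samples.

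In the targets, which encode basic helix-loop-helix repressors, the groups overlapped. Hes1 (chromosome 16, 30064384 to 30067796, plus strand) lay at 10.22, 10.13, 10.67 and 10.69 in replicates 1 to 4 of the GRHL2 group and at 10.22, 9.96, 10.48 and 10.43 in the control replicates. In each group replicates 3 and 4 stood above replicates 1 and 2, by 0.51 in GRHL2 and 0.36 in control samples. The differences within pairs were 0.0017, 0.17, 0.20 and 0.26 for replicates 1 to 4. The log2 fold change of 0.16 had an adjusted p of 0.531 without the block and of 0.0272 with it (limma), where the 95% interval narrowed from -0.18 to 0.50 to 0.055 to 0.26. The call with the block was lost with a term for replicates 1 and 2 against 3 and 4 in its place (adjusted p = 0.0642, limma) and with a correction for the GC content of transcripts added to it (0.11, adjusted p = 0.105), and leaving out 1 sample moved the difference between 0.052 and 0.26. Within replicates 3 and 4 alone the difference was 0.23 (adjusted p = 0.00758, limma), and within replicates 1 and 2 it was 0.086 (adjusted p = 0.651).

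Hey1 (chromosome 3, 8663359 to 8667256, minus strand) stood at 6.84, 6.96, 6.97 and 6.90 in replicates 1 to 4 of the GRHL2 group and at 6.86, 6.62, 7.05 and 7.07 in the control replicates. Its GRHL2 samples all fell within the range of the control samples. Control replicate 2 was the lowest, and in this pair alone the GRHL2 sample was the higher one, by 0.34. The difference of 0.016 had a 95% interval from -0.19 to 0.22 and an adjusted p of 0.932 (limma), and it was 0.16 within replicates 1 and 2 and -0.13 within replicates 3 and 4.

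The order of the 10 levels was the same in both groups. In control samples it ran from Hes1 (10.27 ± 0.24, SD, n = 4) through Jag1 (10.02 ± 0.073), Notch1 (9.71 ± 0.18) and Jag2 (9.40 ± 0.14) to Notch2 (7.61 ± 0.078). Below these came Hey1 (6.90 ± 0.21), Dll1 (5.91 ± 0.13), Notch3 (4.31 ± 0.082), Notch4 (3.93 ± 0.10) and Dll4 (2.89 ± 0.038). In control samples neighbours among Hes1, Jag1, Notch1 and Jag2 had overlapping ranges, whereas in GRHL2 samples Jag1 and Notch1 did not overlap. From Jag2 downwards no neighbours overlapped in either group. The lead of Notch3 over Notch4 was 0.38 in control samples and 1.09 in GRHL2 samples. Against all genes, Hes1 was above 89.7% and Dll4 above 27.6% in control samples. Levels of different genes rest on the transcript lengths that the authors averaged, so small gaps between genes may shift with the lengths used.

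**Figure D3:**
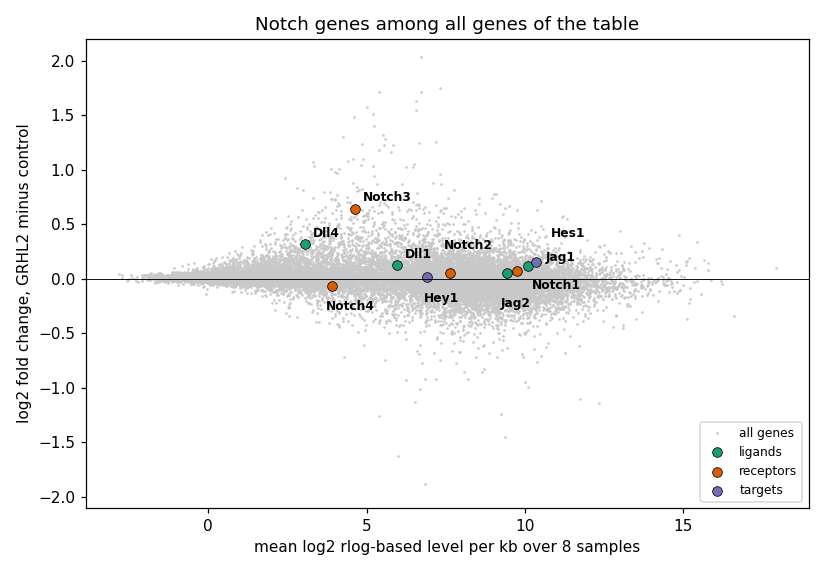
Mean log2 rlog-based level per kb over the 8 samples (horizontal axis) against the log2 fold change (GRHL2 minus control, vertical axis) of all 18671 genes in grey, with the Notch ligands, receptors and targets in colour. Notch3 (0.64) and Dll4 (0.31) stand at low levels and above most grey points, and the other 8 Notch genes lie within the grey cloud near 0.

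A further 64 pathway genes were listed by role, of which 61 were in the table (Dlk1, Hes3 and Hes5 were not). Of these, 7 were called higher and 3 lower, or 11.5% and 4.92%, close to the 10.5% and 5.91% of all genes. With the replicate block the counts were 15 and 5, or 24.6% and 8.20%, against 18.2% and 13.9% of all genes. Within replicates 1 and 2 only Lfng and Dtx1 of the 10 called genes were called by limma, and within replicates 3 and 4 all but Lfng, Dtx4 and Hes2 were.

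None of the 7 measured ligand regulators and other ligands and none of the 9 genes of receptor cleavage was called by limma without the block (0 and 1, respectively, at an unadjusted p under 0.05). Over all genes 10.5% were called higher and 5.91% lower, so lists this short can hold no call. The ubiquitin ligase Mib1, which drives ligand endocytosis, had means of 9.25 ± 0.12 (SD, n = 4) in control and 9.22 ± 0.084 (SD, n = 4) in GRHL2 samples. The sheddase Adam10, the highest gene of the cleavage list, had 10.68 ± 0.070 and 10.70 ± 0.13. With the block, Neurl1b, a ubiquitin ligase acting on ligands, and Psenen, a subunit of gamma-secretase, were called higher (adjusted p = 0.0240 and 0.0141, limma), as were 18.2% of all genes.

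Of the 5 genes for receptor glycosylation, Lfng was called higher, as were 10.5% of all genes. Lfng, the Fringe enzyme that extends O-fucose on Notch and shifts its choice of ligand, was at 7.59 ± 0.11 (SD, n = 4) in control samples and at 7.84 ± 0.035 (SD, n = 4) with GRHL2. It rose by 0.25 (adjusted p = 0.0176, limma), and its groups did not overlap. The call was lost without control replicate 1 (adjusted p = 0.0536) and within replicates 3 and 4 (0.19, adjusted p = 0.0595, limma). Poglut1, which adds O-glucose to Notch, lay at 8.57 in control and 8.56 in GRHL2 samples.

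The nuclear complex held calls in both directions. The Mastermind co-activator Maml2 rose by 0.21 (adjusted p = 0.0229), whereas Maml1 fell by 0.24 (adjusted p = 0.0150) and the acetyltransferase Ep300 fell by 0.30 (adjusted p = 0.0285, limma). The calls of Maml2 and Ep300 were lost in 6 and 5 of 18 alternatives, with adjusted p-values of up to 0.0602 and 0.0779 when 1 sample was left out and of 0.168 and 0.0604 within replicates 1 and 2 (limma). Rbpj, the DNA-binding partner of all 4 receptors, had values from 9.15 to 9.27 in GRHL2 and from 9.09 to 9.18 in control samples, with a difference of 0.092 that was not called (adjusted p = 0.197, limma). Among the 10 co-repressors, Spen was at 7.79 ± 0.14 (SD, n = 4) in control samples and at 7.48 ± 0.042 (SD, n = 4) with GRHL2. It fell by 0.32 (adjusted p = 0.0113, limma). Ctbp1, the highest of the list, stood at 11.38 in each group. With the block, Maml3, Tle2 and Tle3 were called higher and Snw1 lower, with adjusted p-values from 0.00174 to 0.0245 (limma).

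In the list for receptor turnover, Dtx1 and Dtx4, of the Deltex family of ubiquitin ligases, were called higher. Dtx1, itself known as a Notch target, was at 2.60 ± 0.0054 (SD, n = 4) in control samples and at 2.88 ± 0.060 (SD, n = 4) with GRHL2. It rose by 0.28 (adjusted p = 0.000410, limma). Dtx4 rose by 0.26 (adjusted p = 0.0151, limma) but was not called within replicates 1 and 2 (adjusted p = 0.0823) or within replicates 3 and 4 (adjusted p = 0.0739). Nedd4, the highest of the list, had means of 13.47 and 13.50 and was not called, except within replicates 3 and 4 (0.092, adjusted p = 0.0430, limma). Itch was lower by 0.19 and called only with the block (adjusted p = 0.0994 without it and 0.0190 with it, limma).

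Of the 12 further measured genes that were listed as targets, Hey2, Nrarp and Hes2 were called higher and none lower by limma (6 higher and 0 lower at an unadjusted p under 0.05), where 10.5% of all genes were called higher. The list does not show that each of them answers to Notch in these cells. Hey2, a HEY repressor, was at 3.98 ± 0.051 (SD, n = 4) in control samples and at 4.29 ± 0.16 (SD, n = 4) with GRHL2. It rose by 0.31 (adjusted p = 0.0153, limma). Nrarp, a Notch-induced feedback inhibitor, rose by 0.14 from a level of 2.42 (adjusted p = 0.0150, limma). Hes2, at 1.97, rose by 0.11 (adjusted p = 0.00696, limma), but a correction for the GC content of transcripts lowered the difference to 0.059 and ended the call (adjusted p = 0.110, or 0.0836 with the block). In all 3 the GRHL2 samples lay above the control samples. Ccnd1, the highest target, had means of 12.83 and 12.91 and was not called. With the block 6 of the 12 were called higher, against 18.2% of all genes, as Sox9, Bhlhe40 and Heyl were called too, with adjusted p-values of 0.000510, 0.000318 and 0.0398 (limma), against 0.0805, 0.0546 and 0.0529 without it. Sox9 was higher by 0.35 from a control mean of 6.64, and Bhlhe40 by 0.30 from 9.78. Heyl was higher by only 0.044, or 1.03-fold, from a control mean of -0.028.

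**Figure D4:**
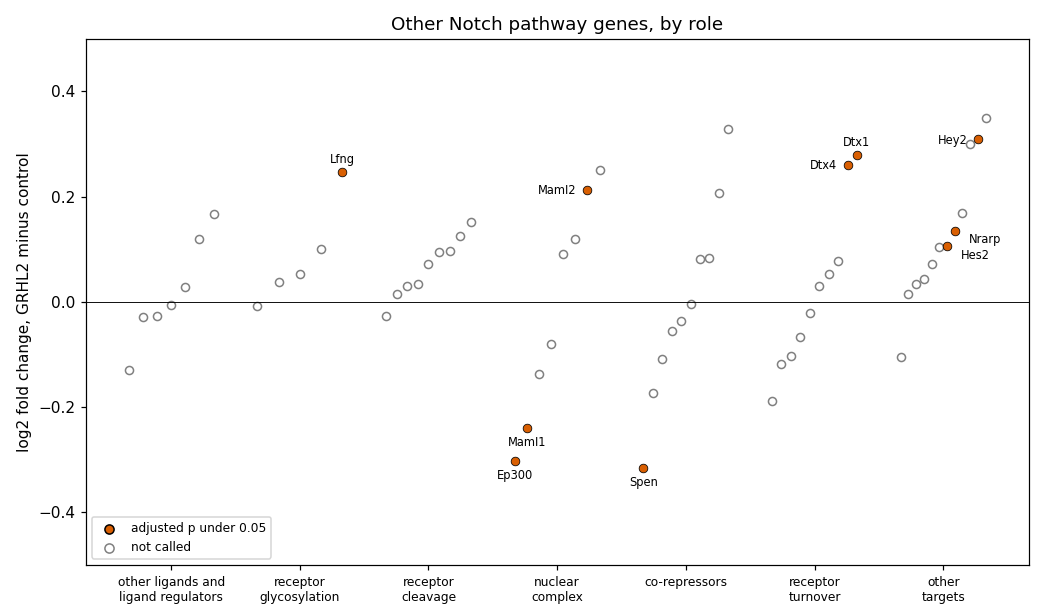
Log2 fold change (GRHL2 minus control, vertical axis) of the 61 other Notch pathway genes by role, each point a gene and orange points the called genes (limma, threshold 0.05). The 7 called higher (Lfng, Maml2, Dtx1, Dtx4, Hey2, Nrarp and Hes2) and the 3 called lower (Maml1, Ep300 and Spen) range from 0.11 to 0.31 and from -0.32 to -0.24.

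The genes whose values over the 8 samples, centred on each gene's mean, ran closest to those of Notch3 were Plau, Adgrl1 and Map7, with root mean square differences of 0.032, 0.033 and 0.043 on the log2 scale. Their own log2 fold changes were 0.65, 0.66 and 0.63. For Dll4 the closest were Rtn4rl2, Skor1 and Htr7, with root mean square differences of 0.022, 0.025 and 0.037 and log2 fold changes of 0.33, 0.30 and 0.32.

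Grhl2 rose by 1.61, 2.38, 1.23 and 1.61 in pairs 1 to 4. Notch3 rose by 0.82, 0.66, 0.58 and 0.52 in the same pairs, and Dll4 by 0.31, 0.47, 0.18 and 0.31. Pair 2 had the largest rise of Grhl2 and of Dll4 but not of Notch3, and pair 3 the smallest of Grhl2 and of Dll4. No correlation is given over 4 pairs.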

How the data were processed

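RNA-seq of 8 BMEL samples was analysed, 4 per plasmid, with groups and replicate numbers from the sample titles. The labels do not say whether samples came from separate cultures (a legend of the study calls its replicates independent), so p-values measure the spread between these samples. According to the study's methods and the submitters' processing notes, the authors aligned reads to the mm10 build (HISAT2, 2.2.1 in the notes), took unstranded exon counts with HTSeq 0.9.1, dropped genes with under 10 reads in all, and divided DESeq2 (1.40.2 in the notes) rlog values by transcript length. The deposited values, although named FPKM, were read as log2 values: 4.81% are below 0. Depth cannot be read from them.

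limma 3.58.1 (R 4.3.3) was run on all 18671 genes as deposited, with a mean-variance trend. It was tested on simulated data first. Exact permutation tests used scipy 1.17.1. The numbers in the titles are the ground for the block. Same-numbered samples of the 2 groups deviated together (Pearson's r across genes 0.474, 0.565, 0.549 and 0.645 in pairs 1 to 4). Differently numbered samples were not set beside them, so these values do not show that matching numbers agree more than others. Alternatives were 2 scalings, the block, a batch term, within-batch values, leave-one-out, no trend, a minimum mean of 2 and a lowess GC correction (18428 genes with GENCODE M21 transcripts, span 0.3). Members, lists and rules were chosen with earlier results of these data known. Named genes were the members, Grhl2, all called pathway genes and the highest of each role, and the 3 genes nearest to each of the 2 called members. These nearest genes were not followed through the alternatives. Pathway genes called with the block alone, Rbpj and overlapping genes were named after their values were seen. Positions are GENCODE M21 (GRCm38), and promoters RefSeq GRCm38.p6.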

Additional observations from a re-analysis of the deposited data

Results flagged for a closer look

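Samples far from the rest of their group were looked for in 27 named genes and both groups, which makes 54 groups of 4 samples. The genes nearest to Notch3 and Dll4 were not among the 27. Such a sample was found in 1 group, where about 1 group in 20 is flagged by chance. The Hes2 level of GRHL2 replicate 4 was 2.05, the lowest of its group, with the next at 2.09 (Dixon's test). None of the 10 Notch receptors, ligands and targets had such a sample.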

How the results depend on the processing

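Notch3 was called higher under all 18 alternatives (log2 fold change 0.55 to 0.74, adjusted p 2.34e-05 to 0.0102, limma), and Dll4 under 17 (0.24 to 0.39, adjusted p 0.000918 to 0.0572), the exception being replicates 1 and 2 alone, where 1 member was called. With the replicate block, which pairs the samples by number, 4 members were called higher, 15 and 5 pathway genes higher and lower, and 3396 and 2589 of all genes. The block changed the calls of no other member. A term for replicates 1 and 2 against 3 and 4 gave 3270 and 2478 genes and 15 and 5 pathway genes, with Jag1 called (adjusted p = 0.0370, limma) and Hes1 not (adjusted p = 0.0642), so that 3 members were called. The GC correction with the block gave 3157 and 2751 genes, 15 and 11 pathway genes and 1 member lower, Notch4 (adjusted p = 0.0302, limma), and Hes1 was not called. Replicates 1 and 2 alone gave 1021 and 339 genes and 2 and 0 pathway genes, and replicates 3 and 4 alone 1667 lower genes and 13 higher pathway genes. An equal upper quartile gave 3064 higher genes. Genes called lower numbered 690 to 1036 when 1 sample was left out, with the fewest without GRHL2 replicates 1, 3 or 4 or control replicate 1. The GC correction ended the call of Hes2 (0.059, adjusted p = 0.110, limma). Leaving out 1 sample ended the call of Lfng (control replicate 1), of Ep300 (GRHL2 replicates 1, 3 and 4, control replicate 1) and of Maml2 (the same samples and control replicate 2). The cause was not tested.

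Signs turned only in genes that were not called over all 8 samples without the block, of which Nedd4 was called higher within replicates 3 and 4 (0.092, adjusted p = 0.0430, limma). Jag2 was at -0.0047 with the GC correction, with or without the block. Notch2 (-0.0049), Adam10 (-0.044) and Nedd4 (-0.032) turned within replicates 1 and 2, and Dll1 (-0.022), Hey1 (-0.13), Poglut1 (0.015) and Ctbp1 (0.0093) within replicates 3 and 4. Poglut1 was at 0.015 and Ctbp1 at 0.019 with an equal upper quartile, at 0.017 and 0.021 with an equal sum, and Poglut1 at 0.0042 with the GC correction, with or without the block. With 1 sample left out, Notch1 ranged from -0.00040 (without GRHL2 replicate 3) to 0.18, Hey1 from -0.077 (without control replicate 2) to 0.072, Mib1 from -0.059 to 0.032, Poglut1 from -0.029 to 0.018, Adam10 from -0.024 to 0.060, Ctbp1 from -0.018 to 0.012 and Nedd4 from -0.0022 to 0.080. The unknown depth and the shrinkage of low genes limit what can be said of Dll4, Notch3 and Notch4. The pseudocount alternative was not run, as the values are on a log scale.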
